A study of Mus musculus with 46 samples.

Results

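The colon of mice that had taken imeglimin in the drinking water for 4 weeks was set against the colon of untreated mice, in 6 of the 46 samples of the series. The samples were chosen by their labels alone as the 3 imeglimin and the 3 control libraries of the chronic colon table. All came from male C57BL/6J mice, and no age was found in the labels. Imeglimin mice received 3 mg/mL of the drug, metformin mice received 3 mg/mL of metformin for the same 4 weeks, and the labels give the controls no drug and no vehicle. The 3 metformin libraries entered the same model and are given beside imeglimin where the compounds were compared. Colon taken 6 h after a single oral dose of 600 mg/kg imeglimin, with its own controls (3 libraries each), served for the comparison of the long with the short exposure. The labels do not say that the replicates of a group are separate animals, so p-values measure only the spread between these samples.

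Imeglimin is a glucose-lowering drug whose tetrahydrotriazine ring closes the open biguanide chain of metformin, and both compounds are described as acting on mitochondria. The colon absorbs salt and water through a single layer of epithelial cells, which burn the short-chain fatty acids made by bacteria and are renewed from stem cells in the crypts. Cells match their cholesterol to need through a pair of opposed systems. When sterols are scarce, SREBP-2 raises the enzymes of cholesterol synthesis and uptake, and when sterols are plentiful, the LXR receptors raise the exporters Abca1 and Abcg1 and the ubiquitin ligase Mylip, which limits cholesterol uptake.

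The libraries held 32236291 to 44373717 counts. Levels are given as CPM, counts scaled to a common library size over the genes kept, with TMM factors, so they compare 1 gene between libraries and not 1 gene with another. Control 3 stood apart, because it carried transcripts of the exocrine pancreas. The 18 pancreatic acinar markers summed to 239, 200.1 and 228 CPM in imeglimin libraries, against 228, 203 and 31454 CPM in control libraries, and 6 of the 18 were at 0 in every imeglimin library. Of the 7 that could be tested, 5 were called lower with imeglimin. The number was 0 by DESeq2, without control 3 or without any 1 imeglimin library. Without control 2 the filter was applied anew and kept more of the 18 than these 7, and 8 were called lower. Results are therefore also given without control 3, and the part of its pancreatic RNA in any other gene was not tested.

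Of 18665 genes tested, 2433 (13.0%) were called at an edgeR adjusted p of at most 0.05, 1487 of them higher (7.97%) and 946 lower (5.07%) with imeglimin than in controls. Without control 3, 932 of 19029 genes were called (4.90%), 598 higher (3.14%) and 334 lower (1.76%), and 912 of the calls with all libraries were made again in the same direction. With 1 library left out, calls numbered 1222 without control 1, 1546 without imeglimin 1, 1500 without imeglimin 2 and 1569 without imeglimin 3, so the count moved by over 1.5 times with each of these libraries and with control 3. The median log2 fold change over all genes was -0.017. In 17.4% of the genes every imeglimin library lay above every control library, and in 16.7% every one lay below.

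The 12 largest rises included Tfrc, Hkdc1, Rtn4r, Lpo and Tmem151a. They and the 12 largest falls were taken from genes with no overlap of groups and a mean of at least 5 CPM in 1 group, so the gaps between groups are part of their choice. Tfrc, the transferrin receptor through which cells take up iron, stood at 1035, 988 and 796 CPM in imeglimin libraries, against 145, 163 and 144 CPM in control libraries. It had the smallest p of all genes tested, and rose by 2.64 ± 0.11, edgeR adjusted p = 4.09e-06 on the log2 scale (value ± its standard error, as for all genes below). Hkdc1, a member of the hexokinase family, stood at 36.3, 28.0 and 66.1 CPM in imeglimin libraries, against 4.47, 5.54 and 4.85 CPM in control libraries (3.13 ± 0.30, edgeR adjusted p = 0.00233). The imeglimin libraries lay close together for Tfrc, and Hkdc1 was highest in imeglimin 3. Rtn4r, a receptor known from its control of axon growth, stood at 9.58, 7.97 and 6.65 CPM in imeglimin libraries, against 0.847, 0.924 and 1.25 CPM in control libraries (2.99 ± 0.21, edgeR adjusted p = 0.000369). Lpo, the antimicrobial enzyme lactoperoxidase, stood at 9.74, 10.5 and 16.7 CPM in imeglimin libraries, against 1.99, 3.23 and 1.16 CPM in control libraries (2.55 ± 0.33, edgeR adjusted p = 0.00338). Tmem151a, which codes for a membrane protein, stood at 7.92, 10.4 and 14.1 CPM in imeglimin libraries, against 1.95, 1.24 and 2.03 CPM in control libraries (2.62 ± 0.26, edgeR adjusted p = 0.00233). In these 3 genes all controls lay under 5 CPM. In bulk tissue, fewer cells of a type and less RNA per cell cannot be told apart.

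The carboxylesterases Ces2e and Ces2b, which hydrolyse drugs and lipid esters, were also among these 12. Ces2e stood at 379, 373 and 448 CPM in imeglimin libraries, against 136, 144 and 124 CPM in control libraries (1.57 ± 0.095, edgeR adjusted p = 0.00012), and Ces2b at 69.5, 66.4 and 101 CPM in imeglimin libraries, against 24.5, 15.3 and 26.1 CPM in control libraries (1.84 ± 0.23, edgeR adjusted p = 0.00321). Ces2b was highest in imeglimin 3. Ces2b, Ces2c and Ces2e are related genes, and how far reads were shared among them was not tested. Brca1, which acts in the repair of DNA breaks, stood at 6.80, 9.98 and 8.61 CPM in imeglimin libraries, against 2.86, 3.70 and 2.23 CPM in control libraries (1.53 ± 0.22, edgeR adjusted p = 0.00421). Dtl, the substrate receptor of a ubiquitin ligase that acts during DNA replication, stood at 10.0, 14.1 and 14.8 CPM in imeglimin libraries, against 3.89, 5.28 and 2.85 CPM in control libraries (1.70 ± 0.29, edgeR adjusted p = 0.0072). The other members of the 12 largest rises were Slfn9, of the Schlafen family (1.67 ± 0.25, edgeR adjusted p = 0.00473), Gramd2 (1.53 ± 0.21, edgeR adjusted p = 0.00385) and Bglap3 (1.68 ± 0.24, edgeR adjusted p = 0.00424), which has close copies in the osteocalcin family.

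The 12 largest falls included Slc37a2, Gcnt1, St8sia5 and Mettl7a2. Slc37a2, an exchanger of sugar phosphates and phosphate in the endoplasmic reticulum, stood at 52.6, 58.8 and 95.2 CPM in imeglimin libraries, against 464, 401 and 525 CPM in control libraries (-2.75 ± 0.32, edgeR adjusted p = 0.00292). Gcnt1, which builds the core 2 branch of the O-glycans carried by mucins, stood at 28.5, 48.4 and 40.9 CPM in imeglimin libraries, against 115, 104 and 132 CPM in control libraries (-1.58 ± 0.17, edgeR adjusted p = 0.00292). St8sia5, which adds sialic acid to gangliosides, stood at 2.01, 1.06 and 3.12 CPM in imeglimin libraries, against 12.8, 8.98 and 15.2 CPM in control libraries (-2.58 ± 0.38, edgeR adjusted p = 0.00466). On the log2 scale the fall of St8sia5 was close to that of Slc37a2, and that of Gcnt1 was smaller. The methyltransferase-like gene Mettl7a2 stood at 5.50, 4.66 and 5.28 CPM in imeglimin libraries, against 26.6, 18.1 and 27.7 CPM in control libraries (-2.23 ± 0.17, edgeR adjusted p = 0.000444), and its close copy Mettl7a3 fell by 2.37 on the log2 scale, with reads that could be shared between the copies. Gjb5, a connexin of cell junctions, stood at 1.44, 1.96 and 3.16 CPM in imeglimin libraries, against 9.55, 8.83 and 10.7 CPM in control libraries (-2.14 ± 0.30, edgeR adjusted p = 0.00385). Nr1i3, the nuclear receptor CAR that senses foreign compounds, stood at 1.03, 1.66 and 2.58 CPM in imeglimin libraries, against 4.24, 5.92 and 5.33 CPM in control libraries (-1.55 ± 0.30, edgeR adjusted p = 0.0116). The others were Pakap, an A-kinase anchoring protein (-3.01 ± 0.58, edgeR adjusted p = 0.0109), Rims2, a protein of vesicle release (-1.69 ± 0.29, edgeR adjusted p = 0.0073), and Insrr, a relative of the insulin receptor (-1.59 ± 0.30, edgeR adjusted p = 0.0106). Igkv8-24, an immunoglobulin light-chain segment with close copies, stood at 0.816, 1.73 and 1.42 CPM in imeglimin libraries, against 9.16, 22.6 and 5.38 CPM in control libraries (-3.22 ± 0.60, edgeR adjusted p = 0.00972). Ifi213, an interferon-induced gene, stood at 1.496, 0.497 and 0.349 CPM in imeglimin libraries, against 16.8, 1.79 and 2.10 CPM in control libraries (-3.16 ± 0.89, edgeR adjusted p = 0.0445). Control 1 alone was far above the rest for Ifi213, and the call was lost without control 1 (0.191), imeglimin 1 (0.0531), imeglimin 2 (0.127) or imeglimin 3 (0.12).

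**Figure D1:**
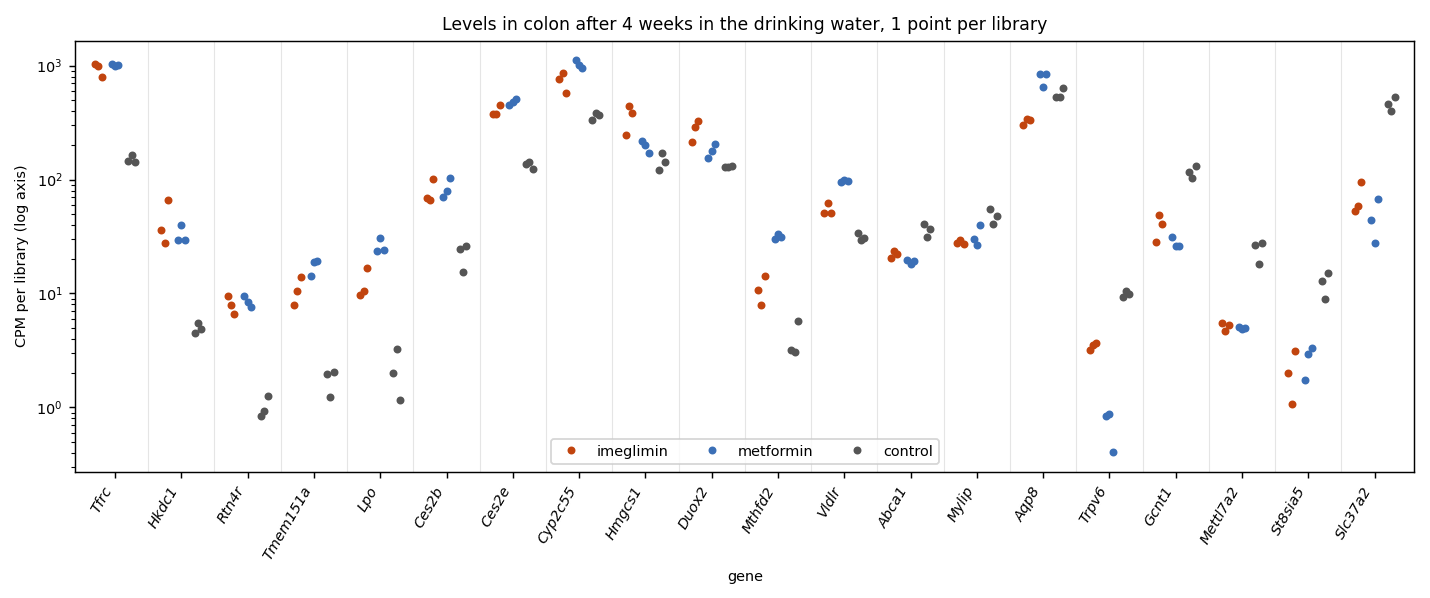
Level of 20 genes in each library of chronic colon, in CPM on a log axis, with imeglimin (orange), metformin (blue) and control (grey) libraries from left to right for each gene and 1 point per library. Tfrc lay between 796 and 1035 CPM with imeglimin, against 144 to 163 CPM in controls, and Slc37a2 between 52.6 and 95.2 CPM, against 401 to 525 CPM.

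Genes were then grouped by function, and each group is described by how many of its tested members were called in each direction, to be read against the 7.97% called higher and 5.07% called lower over all genes, and by its median log2 fold change, to be read against -0.017. In the 25 lists with 0 members called lower by edgeR, 0 to 3 were lower at an unadjusted p under 0.05 and DESeq2 called 0 or 1. In the 6 lists with 0 called higher, 0 or 1 were higher at an unadjusted p under 0.05 and DESeq2 called 0. With 1 library left out, 1 member was called lower in lipid absorption (without imeglimin 2), cytosolic heat shock chaperones (control 1), the integrated stress response and immediate early genes (control 3 for both), and 1 higher in gut hormones (imeglimin 3). The lists that stood furthest to the right were cell cycle and DNA replication, cholesterol synthesis and the respiratory chain. The lists of stem cell genes, gut hormones and class II antigen presentation lay to the left, with few or no calls.

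**Figure D2:**
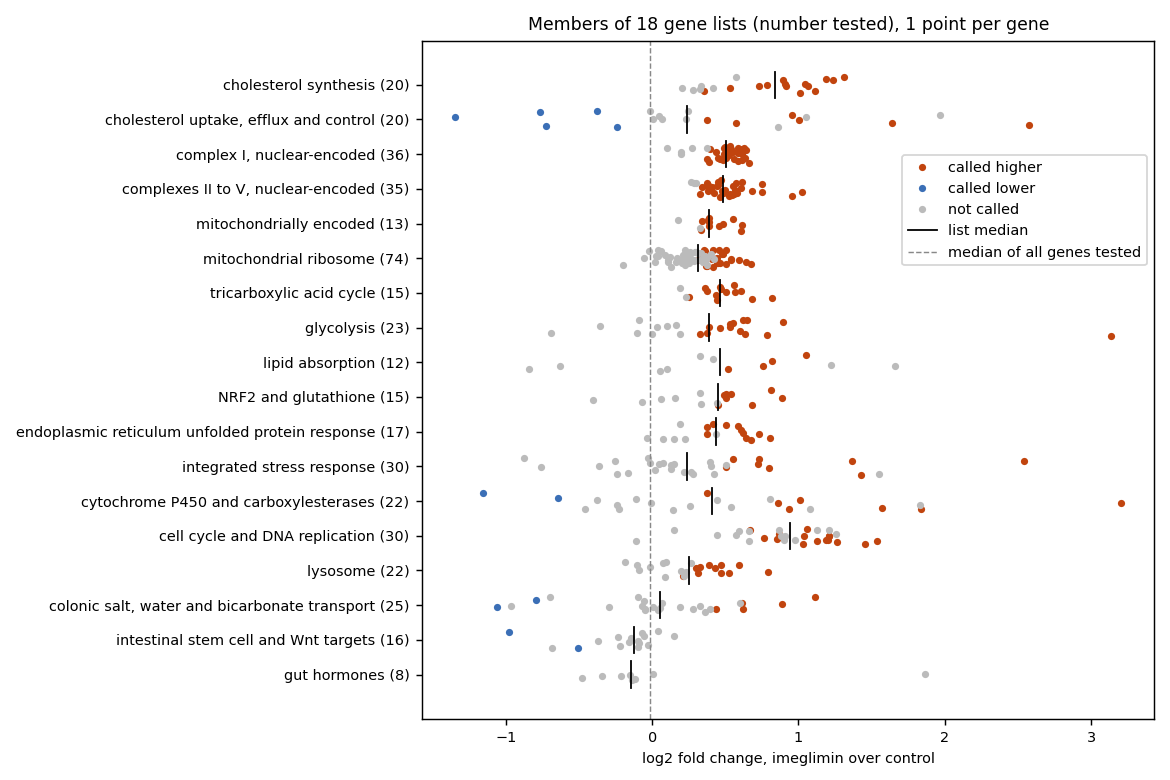
Log2 fold change of imeglimin over control for every tested member of 18 gene lists, 1 point per gene, orange where called higher, blue where called lower and grey where not called. The black bar is the list's median and the dashed line the median of all genes tested, and the cholesterol synthesis median lies at 0.84.

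Cholesterol synthesis rose along most of its length. Of 20 enzymes, 14 were called higher and 0 lower, and all 20 had a positive log2 fold change (median 0.84). The number called higher was 7 without control 1, 6 without control 3 and 8 without imeglimin 2, and the median without control 3 was 0.75. Hmgcs1, which makes HMG-CoA at the start of the pathway, stood at 245, 441 and 387 CPM in imeglimin libraries, against 121, 169 and 143 CPM in control libraries (1.31 ± 0.20, edgeR adjusted p = 0.00534). Fdft1, which commits farnesyl units to sterols, stood at 64.0, 113 and 101 CPM in imeglimin libraries, against 44.4, 52.9 and 50.8 CPM in control libraries (0.91 ± 0.17, edgeR adjusted p = 0.0105). Groups did not overlap in these enzymes, and imeglimin 1 was the lowest of its group in each. Lss, which closes the sterol rings, stood at 31.1, 52.9 and 54.4 CPM in imeglimin libraries, against 15.6, 25.1 and 18.2 CPM in control libraries (1.24 ± 0.24, edgeR adjusted p = 0.0109), and Msmo1, a demethylation enzyme further down, at 101, 139 and 124 CPM in imeglimin libraries, against 52.5, 76.0 and 67.6 CPM in control libraries (0.89 ± 0.16, edgeR adjusted p = 0.00765). Imeglimin 1 was again the lowest of its group, above every control. The members not called included Mvk, Pmvk, Nsdhl, Sc5d and Dhcr7, with log2 fold changes of 0.57, 0.21, 0.42, 0.33 and 0.28. With the labels' batch number in the model Nsdhl and Sc5d passed (edgeR adjusted p = 0.0451 and 0.0358).

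The genes that take up, export and sense cholesterol moved in both directions. Of 20 members 6 were called higher and 5 lower, and without control 3 these were 1 and 4. Insig1, which holds SREBP in the endoplasmic reticulum and is itself an SREBP target, stood at 115, 210.3 and 183 CPM in imeglimin libraries, against 84.2, 82.1 and 87.2 CPM in control libraries (1.00 ± 0.21, edgeR adjusted p = 0.0155), and the call was lost without control 1 (0.0527) or control 3 (0.0531). Npc1l1, the intestinal cholesterol importer, stood at 0.735, 0.993 and 0.651 CPM in imeglimin libraries, against 0.137, 0.115 and 0.137 CPM in control libraries (2.58 ± 0.59, edgeR adjusted p = 0.0213), so it was higher at a level under 1 CPM throughout, and its call was lost without control 1 (0.0663), control 2 (0.0607), control 3 (0.073) or imeglimin 2 (0.0577). Also called higher were the sterol carrier Stard4 (0.58 ± 0.14, edgeR adjusted p = 0.0261) and the HDL receptor Scarb1 (0.37 ± 0.10, edgeR adjusted p = 0.0342). The call of Stard4 was lost without control 1 (0.0815), control 3 (0.086), imeglimin 1 (0.0529) or imeglimin 2 (0.0742), and that of Scarb1 without control 1 (0.0952), control 2 (0.0881), control 3 (0.0932), imeglimin 2 (0.0756) or imeglimin 3 (0.0995).

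The exporters Abca1 and Abcg1 and the ligase gene Mylip ran the other way. Abca1, which loads cholesterol onto apolipoprotein A-I, stood at 20.3, 23.6 and 22.2 CPM in imeglimin libraries, against 40.6, 31.6 and 37.2 CPM in control libraries (-0.73 ± 0.10, edgeR adjusted p = 0.00392). Abcg1, which moves sterol to HDL, stood at 5.39, 4.66 and 7.68 CPM in imeglimin libraries, against 18.9, 9.64 and 16.5 CPM in control libraries (-1.34 ± 0.26, edgeR adjusted p = 0.0117). Mylip, the ligase that limits cholesterol uptake, stood at 28.0, 29.6 and 27.0 CPM in imeglimin libraries, against 55.0, 41.1 and 48.0 CPM in control libraries (-0.77 ± 0.15, edgeR adjusted p = 0.0105). In these 3 LXR targets every imeglimin library lay below every control library. Npc1, the lysosomal cholesterol exporter, was lower as well (-0.38 ± 0.087, edgeR adjusted p = 0.0217). The genes of the regulators themselves differed less, with Srebf2, which codes for SREBP-2, at 174, 189.8 and 166 CPM in imeglimin libraries, against 164, 186 and 163 CPM in control libraries (0.047 ± 0.10, edgeR adjusted p = 0.804), where the groups overlapped. The LXR genes Nr1h3 and Nr1h2 had log2 fold changes of 0.23 (edgeR adjusted p = 0.333) and -0.24 (edgeR adjusted p = 0.0498). The call of Nr1h2 was lost without control 1 (0.0879), control 2 (0.0944), control 3 (0.165), imeglimin 1 (0.153) or imeglimin 2 (0.151) and with the labels' batch number in the model (edgeR adjusted p = 0.053), and that of Npc1 without control 1 (0.0752), control 2 (0.0626) or imeglimin 1 (0.0625). Numbers of members called higher were 1 without control 1, 1 without control 3 and 2 without imeglimin 2, and of members called lower 3 without control 1, 3 without control 2 and 3 without imeglimin 1.

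**Figure D3:**
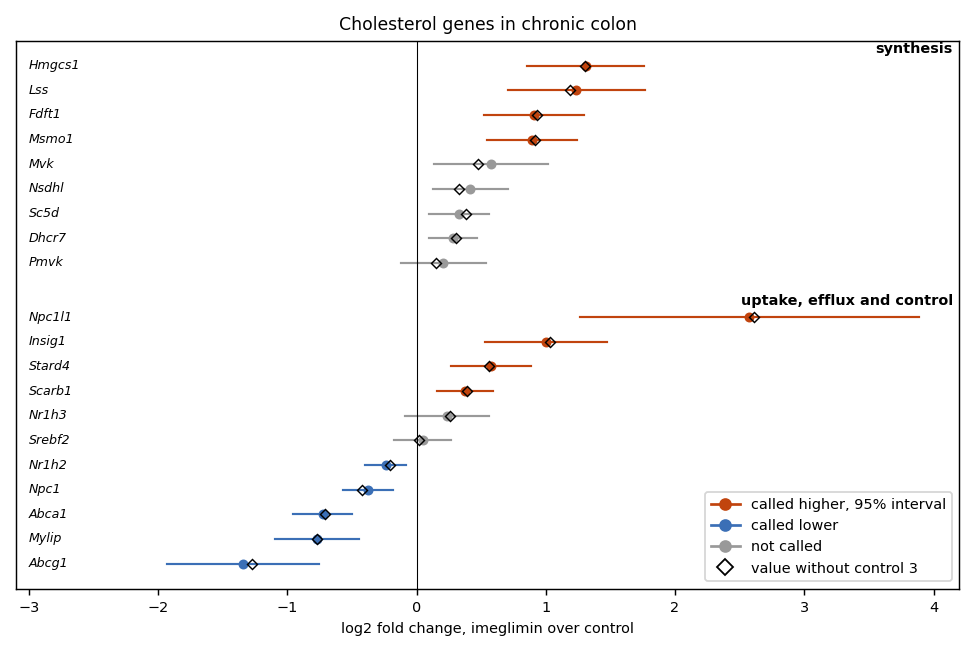
Log2 fold change of imeglimin over control with its 95% interval for 9 genes of cholesterol synthesis and 11 of cholesterol uptake, efflux and control that the text names, orange where called higher, blue where called lower and grey where not called. Open diamonds give the value without control 3, and Hmgcs1 lies at 1.31 with all libraries and 1.30 without it.

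Promoters are shown for 4 of these genes, 3 that rose and 1 that fell. They were taken from called members with small p whose sequence held at least 1 match to the letters searched below. That each printed promoter holds a match is therefore part of the choice. RefSeq sequences (GRCm38.p6) of the 250 bases before the transcription start were at hand for 15 of the 25 called members of both lists. Both strands were searched for CACNCCAC, the core letters of a sterol regulatory element, and for CCAAT, the box bound by NF-Y, a known partner of SREBP. The first was found in 3 promoters of these 15 members and in 5.29% of 32851 promoters of the same length. The second was found in 12 and in 33.8%, and both in 2 and in 1.60%. Matches were counted by promoter, and a gene may have more than 1, so the 3, 12 and 2 are not shares of the 15. Capitals mark each match, CCAAT reading ATTGG where it lies on the other strand, and in the printed promoters no match shares letters with another. The sequences run 5′ to 3′ on the strand of the gene, from chr13:119690101-119690350 (+) for Hmgcs1, chr8:64733579-64733828 (-) for Msmo1, chr10:76531355-76531604 (+) for Lss and chr13:45389492-45389741 (+) for Mylip.
Hmgcs1: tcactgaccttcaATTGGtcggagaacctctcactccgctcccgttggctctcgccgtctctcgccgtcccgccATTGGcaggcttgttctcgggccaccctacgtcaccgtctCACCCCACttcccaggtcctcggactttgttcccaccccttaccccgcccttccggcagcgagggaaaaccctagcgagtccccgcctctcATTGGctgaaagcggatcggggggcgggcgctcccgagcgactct
Msmo1: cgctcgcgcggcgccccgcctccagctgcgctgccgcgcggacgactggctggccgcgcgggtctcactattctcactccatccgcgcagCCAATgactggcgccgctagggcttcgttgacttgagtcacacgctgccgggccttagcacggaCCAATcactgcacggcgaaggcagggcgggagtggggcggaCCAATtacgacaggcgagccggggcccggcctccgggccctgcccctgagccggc
Lss: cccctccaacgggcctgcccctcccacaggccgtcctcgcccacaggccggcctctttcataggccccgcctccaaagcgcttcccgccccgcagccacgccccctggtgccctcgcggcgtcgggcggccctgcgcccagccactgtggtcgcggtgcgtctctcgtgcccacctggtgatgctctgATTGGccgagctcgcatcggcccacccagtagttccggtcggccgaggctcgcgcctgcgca
Mylip: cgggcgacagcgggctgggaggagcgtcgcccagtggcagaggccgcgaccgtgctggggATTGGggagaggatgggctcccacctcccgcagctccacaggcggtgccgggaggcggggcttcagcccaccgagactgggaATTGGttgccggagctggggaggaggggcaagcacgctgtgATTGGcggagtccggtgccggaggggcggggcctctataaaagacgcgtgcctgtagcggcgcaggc
In Hmgcs1, the sterol element letters begin 136 bases before the start, between CCAAT boxes at 237, 176 and 45 bases before it. The bases just after the start were found in a transcript of the gene for Msmo1, Lss and Mylip but not for Hmgcs1. The start of Hmgcs1, and its distances, are uncertain to that extent. Msmo1 holds 3 boxes, at 160, 96 and 55 bases before the start, and Lss holds 1, at 62 bases. Mylip, which fell, also holds 3 boxes, at 190, 108 and 67 bases before its start. A match describes letters and not binding.

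The respiratory chain was higher with imeglimin across all of its complexes. Of 36 nuclear genes of complex I, which passes electrons from NADH to ubiquinone, 31 were called higher and 0 lower, with a median of 0.51. Of 35 nuclear genes of complexes II to V, 32 were called higher and 0 lower, with a median of 0.48. Without control 3 these counts were 21 and 26. The steps were small and even. Ndufv2, a subunit of the NADH-binding arm of complex I, stood at 172, 166 and 182 CPM in imeglimin libraries, against 114, 116 and 116 CPM in control libraries (0.59 ± 0.069, edgeR adjusted p = 0.00292). Uqcrq, a subunit of complex III, stood at 161, 140.2 and 158 CPM in imeglimin libraries, against 77.7, 86.4 and 72.5 CPM in control libraries (0.96 ± 0.094, edgeR adjusted p = 0.00233). Cycs, the electron carrier cytochrome c, stood at 344, 325 and 436 CPM in imeglimin libraries, against 168, 193 and 183 CPM in control libraries (1.02 ± 0.12, edgeR adjusted p = 0.00292). The libraries of each group lay close together in these genes, and the groups were well apart.

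The 13 protein genes of the mitochondrial genome followed, with 11 called higher and 0 lower and a median of 0.39. The number fell to 6 without control 1, 7 without control 2 and 7 without imeglimin 1, and 10 without control 3. ND1, a core subunit of complex I, stood at 6995, 6155 and 7361 CPM in imeglimin libraries, against 3939, 4566 and 4968 CPM in control libraries (0.61 ± 0.093, edgeR adjusted p = 0.00516). COX1, the catalytic subunit of complex IV, stood at 42258, 37277 and 37087 CPM in imeglimin libraries, against 25323, 27696 and 30248 CPM in control libraries (0.49 ± 0.079, edgeR adjusted p = 0.00629). Groups did not overlap in either gene. ND4 and ND2 were not called, with log2 fold changes of 0.17 and 0.33. The libraries were made from polyadenylated RNA, and some of these genes overlap on the mitochondrial genome or have nuclear copies, so their levels are uncertain to that extent.

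Other mitochondrial lists were also described by their calls. Mitochondrial ribosome proteins were called higher in 25 of 74 and lower in 0 (median 0.32), with 10 without control 1, 13 without control 2, 6 without control 3, 10 without imeglimin 1 and 10 without imeglimin 3, and 15 with the labels' batch number in the model. Import proteins and chaperones were called higher in 9 of 20 and lower in 0, with 3 without control 1, 4 without control 2, 2 without control 3, 3 without imeglimin 1 and 4 without imeglimin 3, and 5 with the labels' batch number in the model. Timm8b, a carrier of the space between the membranes, stood at 49.2, 41.7 and 49.8 CPM in imeglimin libraries, against 25.7, 26.0 and 26.5 CPM in control libraries (0.85 ± 0.10, edgeR adjusted p = 0.00294). Enzymes of the tricarboxylic acid cycle were called higher in 13 of 15 and lower in 0 (median 0.47), with 7 without control 3.

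Glycolysis rose in 14 of 23 members and fell in 0 (median 0.39), with 9 without control 1 and 8 without control 3. Pgam1, an enzyme of the later steps of the pathway, stood at 218, 202 and 251 CPM in imeglimin libraries, against 129, 133 and 128 CPM in control libraries (0.79 ± 0.10, edgeR adjusted p = 0.00329). Ldha, which makes lactate from pyruvate, stood at 846, 965 and 1021 CPM in imeglimin libraries, against 606, 628 and 609.7 CPM in control libraries (0.62 ± 0.081, edgeR adjusted p = 0.00354). Hk2, an inducible hexokinase, stood at 338, 381 and 433 CPM in imeglimin libraries, against 259, 267 and 270.1 CPM in control libraries (0.53 ± 0.12, edgeR adjusted p = 0.0197). The groups were apart in all 3, but the call of Hk2 was lost without control 1 (0.0671), control 2 (0.0539), control 3 (0.0628), imeglimin 2 (0.0521) or imeglimin 3 (0.0613). Of 18 genes of pyruvate, lactate and gluconeogenesis, 5 were called higher and 0 lower, all 5 of them at the entry of pyruvate into mitochondria. They were the carrier subunits Mpc1 (0.53 ± 0.091, edgeR adjusted p = 0.00747) and Mpc2 (0.59 ± 0.094, edgeR adjusted p = 0.00579) and the pyruvate dehydrogenase genes Pdha1, Pdhb and Dlat (0.40, 0.37 and 0.51). The call of Pdhb was lost without control 1 (0.0651), control 3 (0.0705), imeglimin 1 (0.0585) or imeglimin 3 (0.0548).

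In the pentose phosphate pathway 4 of 7 members were called higher and 0 lower, with 2 without control 1, 1 without control 3, 2 without imeglimin 1, 2 without imeglimin 2 and 1 without imeglimin 3, and Taldo1 was the member called under each of these (0.58 ± 0.09, edgeR adjusted p = 0.00536). Of 13 genes of hexose transport and its regulators, 1 was called higher and 2 lower. Slc2a1, the basal glucose transporter GLUT1, stood at 185, 204 and 209.8 CPM in imeglimin libraries, against 147, 137 and 151 CPM in control libraries (0.46 ± 0.079, edgeR adjusted p = 0.00717). Arrdc4, an arrestin that restrains glucose uptake, stood at 84.0, 106 and 89.4 CPM in imeglimin libraries, against 158, 134 and 152 CPM in control libraries (-0.67 ± 0.11, edgeR adjusted p = 0.00666). Neither gene had overlapping groups. Txnip, its relative with the same action on GLUT1, stood at 1035, 1124 and 902 CPM in imeglimin libraries, against 1489, 1224 and 1544 CPM in control libraries (-0.48 ± 0.12, edgeR adjusted p = 0.0336), and the call was lost without control 1 (0.107), control 3 (0.128), imeglimin 1 (0.0747) or imeglimin 3 (0.0919) and with the labels' batch number in the model (edgeR adjusted p = 0.0565). The sodium-glucose transporter Slc5a1 stood at 153, 162 and 199 CPM in imeglimin libraries, against 158, 159 and 167 CPM in control libraries (0.085 ± 0.10, edgeR adjusted p = 0.613), with overlapping groups. The fructose transporter Slc2a5 had -0.77 (edgeR adjusted p = 0.13), and Slc2a2 was too low to be tested. Of the 4 sugar-phosphate exchangers, 1 was called lower, Slc37a2.

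Fat handling changed in part. Lipid absorption genes were called higher in 4 of 12 and lower in 0 (median 0.47), and the same number was called higher without control 3. With the labels' batch number in the model 1 was called lower. Apob, the backbone of chylomicrons, stood at 274, 269.8 and 488 CPM in imeglimin libraries, against 176, 149 and 172 CPM in control libraries (1.05 ± 0.20, edgeR adjusted p = 0.0106). Slc27a4, a fatty acid transport protein, stood at 97.9, 99.6 and 89.3 CPM in imeglimin libraries, against 52.4, 60.6 and 56.8 CPM in control libraries (0.76 ± 0.079, edgeR adjusted p = 0.00275). Dgat2, which makes triglyceride, stood at 72.1, 72.5 and 75.8 CPM in imeglimin libraries, against 39.0, 42.8 and 43.4 CPM in control libraries (0.82 ± 0.10, edgeR adjusted p = 0.00294). No groups overlapped here, and imeglimin 3 was the high library for Apob. Fatty acid oxidation and ketogenesis genes were called higher in 5 of 24 and lower in 0 (median 0.069). They included the ketone body enzyme Bdh1 (0.50 ± 0.081, edgeR adjusted p = 0.00597) and the genes Etfa, Etfb and Etfdh (0.41, 0.50 and 0.46), which carry electrons from acyl-CoA dehydrogenases to the chain. Of the 24, the dehydrogenases Acadm, Acadl and Acads had -0.23, -0.014 and -0.0048 and were not called. Of 14 genes of fatty acid synthesis and desaturation, 1 was called higher, Fasn (0.42 ± 0.10, edgeR adjusted p = 0.0264), and 1 lower, the desaturase Scd1 (-0.57 ± 0.12, edgeR adjusted p = 0.0148). The call of Fasn was lost without control 1 (0.0665), control 3 (0.0937), imeglimin 2 (0.0652) or imeglimin 3 (0.0765), and that of Scd1 without control 3 (0.0558), imeglimin 1 (0.0569) or imeglimin 2 (0.0539).

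Chaperones of protein folding rose. Of 17 genes of the unfolded protein response of the endoplasmic reticulum, 11 were called higher and 0 lower (median 0.44), with 5 without control 1, 6 without imeglimin 1 and 5 without imeglimin 2 and 8 without control 3. Calr, a calcium-binding chaperone, stood at 572, 612 and 672 CPM in imeglimin libraries, against 375, 402 and 411 CPM in control libraries (0.64 ± 0.094, edgeR adjusted p = 0.00426). Hsp90b1, which folds secreted and membrane proteins, stood at 719, 775 and 698 CPM in imeglimin libraries, against 426, 513 and 518 CPM in control libraries (0.59 ± 0.10, edgeR adjusted p = 0.00723). Pdia6, a disulfide isomerase, stood at 175, 182 and 156 CPM in imeglimin libraries, against 106, 117 and 111 CPM in control libraries (0.62 ± 0.10, edgeR adjusted p = 0.00594). The groups were apart in each, and imeglimin libraries differed little among themselves. Of 16 cytosolic heat shock chaperones 6 were called higher and 0 lower, with 2 without control 1, 3 without control 3, 3 without imeglimin 1 and 3 without imeglimin 2. Hspa4l, a nucleotide exchange factor of Hsp70, stood at 97.1, 98.1 and 92.0 CPM in imeglimin libraries, against 43.0, 55.1 and 62.1 CPM in control libraries (0.84 ± 0.13, edgeR adjusted p = 0.00544).

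Targets of NRF2 and glutathione genes were called higher in 8 of 15 and lower in 0 (median 0.45, 6 higher without control 3). Srxn1, which repairs oxidised peroxiredoxins, stood at 136, 155 and 154 CPM in imeglimin libraries, against 85.3, 81.2 and 74.2 CPM in control libraries (0.89 ± 0.089, edgeR adjusted p = 0.00244). Gclc, the limiting enzyme of glutathione synthesis, stood at 118, 126 and 102 CPM in imeglimin libraries, against 78.3, 86.9 and 78.8 CPM in control libraries (0.50 ± 0.086, edgeR adjusted p = 0.00708). The imeglimin libraries lay above the controls in both. The integrated stress response list, the genes that ATF4 raises when amino acids or mitochondria fail, had 8 of 30 called higher and 0 lower (median 0.24), with 5 without control 1, 5 without control 2, 4 without control 3 and 5 without imeglimin 1. Without control 3, 1 member was called lower. Asns, which makes asparagine, stood at 39.1, 33.9 and 67.4 CPM in imeglimin libraries, against 15.7, 15.7 and 23.1 CPM in control libraries (1.37 ± 0.26, edgeR adjusted p = 0.0113). Chac1, which degrades glutathione, stood at 2.56, 2.79 and 8.10 CPM in imeglimin libraries, against 0.596, 0.722 and 0.980 CPM in control libraries (2.54 ± 0.45, edgeR adjusted p = 0.00794). Imeglimin 3 was the highest library in both, and no groups overlapped. Gdf15, a stress hormone, stood at 10.7, 5.46 and 11.9 CPM in imeglimin libraries, against 7.49, 5.92 and 6.36 CPM in control libraries (0.51 ± 0.24, edgeR adjusted p = 0.201), and Trib3, a pseudokinase, at 0.979, 1.47 and 4.30 CPM in imeglimin libraries, against 0.298, 0.751 and 1.25 CPM in control libraries (1.55 ± 0.58, edgeR adjusted p = 0.109). The groups of both overlapped. Trib3 passed in the DESeq2 test (DESeq2 adjusted p = 0.0203), and Gdf15 passed without imeglimin 2 (edgeR adjusted p = 0.0129).

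Iron genes other than Tfrc moved less. Of 23 genes of iron uptake, storage and export, 4 were called higher and 1 lower, with 2 without control 3 and 2 without imeglimin 2. Ftl1, the light chain of ferritin, stood at 1375, 1223 and 1376 CPM in imeglimin libraries, against 730.4, 814 and 764 CPM in control libraries (0.78 ± 0.094, edgeR adjusted p = 0.00298), with no overlap of groups. Heph, which oxidises iron for export (0.41 ± 0.092, edgeR adjusted p = 0.0191), and Aco1, the iron-sensing IRP1 (0.32 ± 0.072, edgeR adjusted p = 0.0185), lost their calls without control 1 (0.054), control 3 (0.0709) or imeglimin 2 (0.0507) for Heph and without control 1 (0.0507), control 3 (0.0704), imeglimin 2 (0.0548) or imeglimin 3 (0.0562) for Aco1. The 1 lower gene, the metal importer Slc39a14 (-0.26 ± 0.075, edgeR adjusted p = 0.0466), lost its call without control 1 (0.144), control 2 (0.0807), control 3 (0.118), imeglimin 1 (0.128) or imeglimin 2 (0.153) and with the labels' batch number in the model (edgeR adjusted p = 0.064). The iron importer Slc11a2 and exporter Slc40a1 had -0.082 and 0.15 and were not called. Of 12 zinc and metallothionein genes 2 were called higher and 1 lower. Mt1, a metal-binding metallothionein, stood at 131, 111 and 148 CPM in imeglimin libraries, against 68.2, 68.3 and 79.8 CPM in control libraries (0.85 ± 0.11, edgeR adjusted p = 0.00337). Slc39a4, the zinc importer of the gut lumen, stood at 145, 159.7 and 194 CPM in imeglimin libraries, against 89.9, 104 and 94.0 CPM in control libraries (0.79 ± 0.11, edgeR adjusted p = 0.00378), while Slc39a5, a zinc transporter of the opposite side of the cell, stood at 33.1, 31.4 and 26.4 CPM in imeglimin libraries, against 44.7, 50.2 and 51.8 CPM in control libraries (-0.69 ± 0.10, edgeR adjusted p = 0.00466). The groups of these 3 genes were apart. Lysosomal genes were called higher in 11 of 22 and lower in 0 (median 0.25), with 5 without control 1, 7 without control 2, 5 without control 3 and 6 without imeglimin 3. Ctsz, a cathepsin, stood at 160.3, 161 and 213 CPM in imeglimin libraries, against 101, 105 and 103 CPM in control libraries (0.79 ± 0.11, edgeR adjusted p = 0.00385).

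Genes of DNA replication and division were higher, with a wide spread. Of 30, 15 were called higher and 0 lower, with a median of 0.94. It came to 8 without control 1, 6 without control 3, 9 without imeglimin 2 and 9 without imeglimin 3. Mcm6, part of the replicative helicase, stood at 48.5, 59.9 and 73.8 CPM in imeglimin libraries, against 27.2, 27.2 and 24.5 CPM in control libraries (1.21 ± 0.21, edgeR adjusted p = 0.0073). Rrm2, which makes deoxyribonucleotides, stood at 8.71, 14.3 and 15.4 CPM in imeglimin libraries, against 4.12, 5.89 and 4.03 CPM in control libraries (1.45 ± 0.24, edgeR adjusted p = 0.00688). Pcna, the sliding clamp of DNA polymerases, stood at 71.5, 76.1 and 88.6 CPM in imeglimin libraries, against 42.6, 44.6 and 42.5 CPM in control libraries (0.87 ± 0.12, edgeR adjusted p = 0.00378). Every imeglimin library lay above every control library in these 3 genes, and imeglimin 1 was the lowest and imeglimin 3 the highest of the group in each. Mki67, Ccnb1 and Plk1, members that act in mitosis, had 0.87 ± 0.31, edgeR adjusted p = 0.0941, 1.21 ± 0.44, edgeR adjusted p = 0.0994 and 0.44 ± 0.26, edgeR adjusted p = 0.306 and were not called. With the labels' batch number in the model Mki67 and Ccnb1 passed (edgeR adjusted p = 0.0332 and 0.0434). Stem cell and Wnt target genes had 0 of 16 called higher and 2 lower (median -0.12). They were Znrf3, which removes Wnt receptors (-0.51 ± 0.10, edgeR adjusted p = 0.0114), and Ascl2, a regulator of crypt stem cells (-0.98 ± 0.21, edgeR adjusted p = 0.0164), whose call was lost without control 3 (0.0671) or imeglimin 3 (0.0522). Lgr5, the stem cell marker, had -0.16 (edgeR adjusted p = 0.701). Of 6 EGF receptor ligands 1 was called higher, Btc (0.87 ± 0.17, edgeR adjusted p = 0.0118, lost without control 3 (0.0518)), and Areg had 0.10 (edgeR adjusted p = 0.828).

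Genes of the colonic surface cell moved in both directions. Of 25 genes of salt, water and bicarbonate transport, 5 were called higher and 2 lower (median 0.056). Hsd11b2, which keeps glucocorticoids off the aldosterone receptor, stood at 416, 364 and 540.4 CPM in imeglimin libraries, against 258, 229 and 226 CPM in control libraries (0.89 ± 0.15, edgeR adjusted p = 0.00643). Aqp8, a water channel of the luminal surface, stood at 303, 337 and 335 CPM in imeglimin libraries, against 531, 527 and 634 CPM in control libraries (-0.80 ± 0.12, edgeR adjusted p = 0.00447). In both the groups were apart. Scnn1a, of the epithelial sodium channel, and Atp1b1, of the sodium pump, were also higher (0.62 ± 0.13, edgeR adjusted p = 0.015 and 0.62), with the call of Scnn1a lost without control 1 (0.059). Car2, a carbonic anhydrase (0.44 ± 0.086, edgeR adjusted p = 0.0117), and Sgk1, a kinase that stimulates sodium uptake (-1.06 ± 0.29, edgeR adjusted p = 0.042), lost their calls, Car2 without control 3 (0.0518) and Sgk1 without control 1 (0.109), control 3 (0.135), imeglimin 1 (0.103) or imeglimin 2 (0.121). Of 10 calcium and phosphate transport genes 0 were called higher and 1 lower, the luminal calcium channel Trpv6, at 3.16, 3.50 and 3.68 CPM in imeglimin libraries, against 9.25, 10.5 and 9.84 CPM in control libraries (-1.52 ± 0.23, edgeR adjusted p = 0.00473).

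Detoxification genes were called higher in 7 of 22 and lower in 2 (median 0.41, 5 and 1 without control 3). Cyp2c55, a colonic cytochrome P450, stood at 762, 865 and 570.1 CPM in imeglimin libraries, against 335, 383 and 369.8 CPM in control libraries (1.01 ± 0.14, edgeR adjusted p = 0.00378). Cyp1a1, a P450 raised by the aryl hydrocarbon receptor, stood at 2.50, 0.899 and 3.05 CPM in imeglimin libraries, against 0.160, 0.260 and 0.273 CPM in control libraries (3.21 ± 0.54, edgeR adjusted p = 0.00707). Cyp2d9 stood at 17.4, 20.8 and 30.6 CPM in imeglimin libraries, against 50.4, 40.7 and 62.0 CPM in control libraries (-1.15 ± 0.21, edgeR adjusted p = 0.00841). Groups were apart in these 3 genes. The 2 lower members were 1 without control 1, control 3, imeglimin 1 or imeglimin 2, and Cyp2d9 was the one called each time. Of 10 genes of bile acid handling 3 were called higher and 1 lower, with Slc51b, a subunit of the basolateral bile acid exporter, at 12.9, 12.2 and 15.3 CPM in imeglimin libraries, against 7.21, 7.42 and 7.24 CPM in control libraries (0.89 ± 0.16, edgeR adjusted p = 0.00817) and the bile acid receptor gene Nr1h4 at 54.1, 50.2 and 53.5 CPM in imeglimin libraries, against 41.7, 37.3 and 45.9 CPM in control libraries (0.34 ± 0.09, edgeR adjusted p = 0.0374). The call of Nr1h4 was lost without control 1 (0.0949), control 2 (0.11), imeglimin 1 (0.101), imeglimin 2 (0.059) or imeglimin 3 (0.091), and that of Abcc2, an exporter of conjugates (0.89 ± 0.23, edgeR adjusted p = 0.0317), without control 1 (0.103), control 3 (0.089) or imeglimin 3 (0.0881). Of 14 antimicrobial genes 2 were called higher and 0 lower, the partners Duox2 and Duoxa2, which make hydrogen peroxide at the cell surface. Duox2 stood at 215, 288 and 329.7 CPM in imeglimin libraries, against 128, 129.8 and 133 CPM in control libraries (1.09 ± 0.15, edgeR adjusted p = 0.00378) and Duoxa2 at 27.4, 30.0 and 41.3 CPM in imeglimin libraries, against 15.1, 13.3 and 17.7 CPM in control libraries (1.10 ± 0.17, edgeR adjusted p = 0.00521), with no overlap of groups.

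Gut hormone genes had 0 of 8 called in either direction by edgeR (median -0.15). Gcg, which codes for GLP-1, stood at 66.3, 59.0 and 37.3 CPM in imeglimin libraries, against 58.9, 56.1 and 47.1 CPM in control libraries (0.0041 ± 0.19, edgeR adjusted p = 0.992). Pyy, peptide YY, stood at 58.3, 48.8 and 49.8 CPM in imeglimin libraries, against 64.2, 50.7 and 55.1 CPM in control libraries (-0.12 ± 0.11, edgeR adjusted p = 0.553). Insl5, a hormone of colonic L cells, stood at 49.8, 45.3 and 37.9 CPM in imeglimin libraries, against 63.1, 49.0 and 56.5 CPM in control libraries (-0.34 ± 0.12, edgeR adjusted p = 0.0845). The groups overlapped in all 3, and at an unadjusted p under 0.05 edgeR gave 1 of the 8 higher and 3 lower, while DESeq2 called 0 higher and 1 lower, as did edgeR with the labels' batch number in the model. Transporters of organic cations and thiamine, the route of biguanides into cells, had 0 of 9 called (median 0.091, with 0 by DESeq2 also and 0 where p under 0.05 was left unadjusted). Slc22a3 had -0.73 (edgeR adjusted p = 0.383) and Slc29a4 -0.043 (edgeR adjusted p = 0.946). Class II antigen presentation had 0 of 8 called (median -0.25, with 0 by DESeq2 also and 0 where p under 0.05 was left unadjusted).

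The remaining lists had 1 to 5 calls. Interferon-induced genes had 1 of 30 called higher, Irf7 (0.68 ± 0.19, edgeR adjusted p = 0.0461), and 1 lower, Ifi27l2a (-0.88 ± 0.19, edgeR adjusted p = 0.0158), with a median of 0.29. The call of Irf7 was lost without control 1 (0.127), control 2 (0.132), control 3 (0.0663), imeglimin 2 (0.0976) or imeglimin 3 (0.127), and that of Ifi27l2a without imeglimin 2 (0.0554). With the labels' batch number in the model 3 were called higher. Immediate early genes had 1 of 20 called higher, the phosphatase Dusp4 (1.01 ± 0.15, edgeR adjusted p = 0.00418), and 0 lower (1 without control 3). Targets of hypoxia-inducible factors had 4 of 15 higher and 1 lower, with Pfkfb4, a regulator of glycolysis, at 68.0, 68.8 and 90.8 CPM in imeglimin libraries, against 39.1, 31.7 and 34.6 CPM in control libraries (1.11 ± 0.15, edgeR adjusted p = 0.00369) and Vegfa at -0.19 (edgeR adjusted p = 0.193). Without control 3 these were 2 and 0. Heme synthesis had 2 of 8 higher, Alas1 (0.56 ± 0.13, edgeR adjusted p = 0.0228) among them, with 0 without control 2 or control 3 and 1 without any 1 of the other libraries. Circadian clock genes had 1 of 16 higher, Cry1 (0.59 ± 0.16, edgeR adjusted p = 0.0422), and 1 lower, Clock (-0.23 ± 0.067, edgeR adjusted p = 0.0478), and 0 of either without any 1 of the 6 libraries, with edgeR adjusted p up to 0.139 for Clock and 0.115 for Cry1. The call of Clock was also lost with the labels' batch number in the model (edgeR adjusted p = 0.0722). 

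Markers of the cell types in whole colon were summed in each library. Fibroblast markers summed to 1580, 1922 and 1799 CPM in imeglimin libraries, against 2408, 1969 and 1940 CPM in control libraries, and 3 of 14 were called lower (0 higher). The 3 were the collagens Col1a1 (-0.57 ± 0.13, edgeR adjusted p = 0.023), Col1a2 (-0.50 ± 0.12, edgeR adjusted p = 0.0235) and Col3a1 (-0.62 ± 0.14, edgeR adjusted p = 0.0217), with 0 without control 1 or imeglimin 3, 1 without imeglimin 1 and 5 without imeglimin 2. Smooth muscle markers summed to 5412, 7392 and 6617 CPM, against 7096, 7431 and 7198 CPM in controls, with 0 of 15 called. Both sums were lowest in imeglimin 1, and neither list had a member at 0 throughout a group. Goblet cell markers summed to 16606, 20063 and 16149 CPM, against 15042, 13336 and 16475 CPM in controls, with 2 of 12 called higher, the mucus proteins Zg16 (0.64 ± 0.14, edgeR adjusted p = 0.0162) and Agr2 (0.63 ± 0.17, edgeR adjusted p = 0.0367). Their number was 0 without control 1 and 1 without control 2, control 3 or imeglimin 2.  Absorptive colonocyte markers summed to 14741, 18577 and 19109 CPM, against 15538, 14746 and 15618 CPM in controls, with 3 of 13 called higher (Cyp2c55, Ceacam1 and Vil1) and 2 lower (Aqp8 and Slc37a2), and 1 higher without control 3. The call of Vil1 was lost with the labels' batch number in the model (edgeR adjusted p = 0.0514). Epithelial markers summed to 9549, 10674 and 10351 CPM, against 9131, 9211 and 8327 CPM in controls, with 0 of 7 called. All 3 imeglimin sums of the epithelial list lay above all 3 control sums. The part of composition in the gene results above was not tested.

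Of the immune lists, B and plasma cell markers summed to 685, 651 and 667 CPM in imeglimin libraries, against 603, 671 and 636 CPM in controls, with 1 of 12 called higher, Sdc1, which epithelium also makes (0.42 ± 0.078, edgeR adjusted p = 0.00966). T and NK cell (12 tested), macrophage (10), neutrophil (2) and mast cell (5) markers had 0 called in either direction, as did endothelial (12), neuronal and glial (13), tuft (8), adipocyte (7), erythrocyte (5), interstitial (5) and Paneth cell (2) markers. In the 16 marker lists with 0 members called higher, 0 to 4 were higher at an unadjusted p under 0.05 and DESeq2 called 0 to 2, and in the 15 with 0 called lower these were 0 to 3 and 0 or 1. With 1 library left out, 8 of these lists had 1 member called in 1 case. Adipocyte markers summed to 32.2, 89.55 and 57.6 CPM in imeglimin libraries, against 67.6, 125.6 and 95.8 CPM in controls (median log2 fold change -1.44). Neutrophil markers, mostly Ly6g, summed to 18.4, 20.6 and 44.2 CPM, against 54.15, 47.2 and 57.5 CPM in controls. With the labels' batch number in the model Plin1 and Fabp4 of the adipocyte list and Ly6g were called lower (edgeR adjusted p = 0.0454, 0.0396 and 0.0401). Enteroendocrine markers summed to 497, 522 and 412 CPM, against 554, 527 and 516 CPM in controls, with 1 of 10 called lower, the transcription factor Neurod1 (-0.95 ± 0.26, edgeR adjusted p = 0.0421; lost without control 1 (0.107), control 2 (0.0861), control 3 (0.102), imeglimin 2 (0.0855) or imeglimin 3 (0.106)). Paneth cells are rare in normal colon, and 4 of their 7 markers were at 0 in all imeglimin libraries and 3 in all control libraries.

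Imeglimin and metformin were compared directly, since both were given at 3 mg/mL for 4 weeks and differ in structure by the closed ring. This was 1 pair of compounds, with p-values adjusted over 18665 genes. Of these, 114 (0.611%) were called, 27 higher (0.145%) and 87 lower (0.466%) with imeglimin than with metformin, and 3523 had an unadjusted p under 0.05. Left-out libraries changed the count to 62 without imeglimin 1, 16 without imeglimin 2, 543 without imeglimin 3, 32 without metformin 1, 18 without metformin 2 and 11 without metformin 3, so each single library moved it by over 1.5 times. The 95% interval reached 0.352 log2 units to either side at the median of all genes, and 71.8% of genes had an interval wholly within 1 log2 unit of 0. For single genes below the interval is given where no difference was called.

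Cell type markers were set side by side in the same libraries. Smooth muscle markers summed to 5412, 7392 and 6617 CPM with imeglimin, 5585, 4979 and 5325 CPM with metformin and 7096, 7431 and 7198 CPM in controls. Of these 15 markers 0 differed between the compounds by edgeR (2 higher without imeglimin 1), while 9 were higher with imeglimin at an unadjusted p under 0.05 and DESeq2 called 4 higher. Against the shared controls 0 of the 15 were called lower with imeglimin and 9 with metformin, and of the 14 fibroblast markers 3 with imeglimin and 9 with metformin. Of 10 enteroendocrine markers 0 differed by edgeR, and at an unadjusted p under 0.05 6 were higher with imeglimin and 1 lower. Of 7 epithelial markers 0 differed by edgeR, with 1 higher and 2 lower at an unadjusted p under 0.05. Cd79a, part of the B cell receptor, stood at 20.1, 8.44 and 5.54 CPM with imeglimin, 17.6, 2.61 and 2.29 CPM with metformin and 22.9, 25.8 and 26.1 CPM in controls. It was lowest in metformin 2 and 3, below every imeglimin library, while metformin 1 lay within the imeglimin range. Of the 12 B and plasma cell markers 0 differed by edgeR, while DESeq2 called 1 higher with imeglimin and 1 was higher by edgeR before adjustment (p under 0.05). The part of these cells in the differences below was not tested.

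Slc34a2, a sodium-phosphate cotransporter, stood at 29.6, 49.6 and 59.9 CPM in imeglimin libraries, 4.83, 5.17 and 6.09 CPM in metformin libraries and 58.3, 28.1 and 40.5 CPM in control libraries. Imeglimin libraries overlapped the controls and all metformin libraries far below (3.11 ± 0.31, edgeR adjusted p = 0.0074 for imeglimin minus metformin). Trpv6 stood at 3.16, 3.50 and 3.68 CPM with imeglimin, 0.847, 0.869 and 0.406 CPM with metformin and 9.25, 10.5 and 9.84 CPM in controls (2.29 ± 0.25, edgeR adjusted p = 0.00807), so it was below controls with both compounds and lower still with metformin, and the call was lost in a fit of these 6 libraries only (edgeR adjusted p = 0.0624). Aqp8 stood at 303, 337 and 335 CPM with imeglimin, 851, 646 and 838 CPM with metformin and 531, 527 and 634 CPM in controls (-1.26 ± 0.12, edgeR adjusted p = 0.0074). Imeglimin libraries were below and metformin libraries above every control library. Acta1, an actin of striated muscle, stood at 10.3, 9.13 and 5.61 CPM in imeglimin libraries, 74.4, 104 and 84.2 CPM in metformin libraries and 6.09, 6.26 and 4.65 CPM in control libraries (-3.39 ± 0.22, edgeR adjusted p = 0.000572), with metformin alone far above the rest. Flcn, folliculin of the lysosomal nutrient-sensing pathway, was lower with imeglimin (-0.83 ± 0.085, edgeR adjusted p = 0.0074), as was Bche, butyrylcholinesterase (-0.79 ± 0.086, edgeR adjusted p = 0.00807). Between the compounds, the calls of Slc34a2, Aqp8, Acta1, Flcn and Bche were made again without each library in turn. Dmbt1, Rhob and Aspn were higher with imeglimin than with metformin (0.79, 0.63 and 0.61), each with a call that was lost without imeglimin 2, metformin 2 or metformin 3 (edgeR adjusted p up to 0.0875). Against controls Dmbt1, Rhob and Aspn were lower with metformin (-0.60, -1.15 and -0.50, edgeR adjusted p = 0.00268, 0.000102 and 0.00379). With imeglimin Rhob was also lower than in controls (-0.51, edgeR adjusted p = 0.00664), and Dmbt1 and Aspn were not called (0.19 and 0.11, edgeR adjusted p = 0.226 and 0.453).

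Targets of ATF4 were lower with imeglimin than with metformin in 4 of 30 members of the integrated stress response list. Atf5, itself a stress transcription factor, stood at 30.9, 24.0 and 40.1 CPM with imeglimin, 84.7, 109.7 and 97.6 CPM with metformin and 18.5, 19.3 and 19.8 CPM in controls (-1.62 ± 0.16, edgeR adjusted p = 0.0074). Ddit3, the factor CHOP, stood at 18.1, 15.9 and 22.0 CPM with imeglimin, 41.0, 41.2 and 45.0 CPM with metformin and 15.9, 21.4 and 16.8 CPM in controls (-1.19 ± 0.14, edgeR adjusted p = 0.0114). Vldlr, a lipoprotein receptor, stood at 50.7, 61.9 and 50.4 CPM with imeglimin, 95.05, 98.1 and 96.7 CPM with metformin and 33.6, 29.2 and 30.7 CPM in controls (-0.83 ± 0.091, edgeR adjusted p = 0.00807), and Mthfd2, of mitochondrial folate metabolism, at 10.7, 7.87 and 14.1 CPM with imeglimin, 29.9, 33.5 and 31.4 CPM with metformin and 3.21, 3.09 and 5.79 CPM in controls (-1.54 ± 0.25, edgeR adjusted p = 0.0397). In these 4 genes all imeglimin libraries lay below all metformin libraries, and for Ddit3 they overlapped the controls. The count of 4 was 9 without imeglimin 3 and 2 without metformin 3, where Ddit3 lost its call (edgeR adjusted p = 0.0681).  The call of Mthfd2 was lost without imeglimin 1 or 2 and without each metformin library (edgeR adjusted p up to 0.144). Gdf15, Trib3 and Asns had -1.17 (95% interval -1.70 to -0.64), -1.33 (-2.53 to -0.12) and -0.64 (-1.22 to -0.069) and were not called. Against the controls that both compounds share, this list had 8 of 30 members called higher with imeglimin and 15 with metformin, where 19.7% of all genes were called with metformin, 11.6% higher and 8.04% lower.

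The mitochondrial genome ran the other way. Of its 13 genes, 3 were higher with imeglimin than with metformin and 0 lower. ND1 stood at 6995, 6155 and 7361 CPM with imeglimin, 4264, 4444 and 4358 CPM with metformin and 3939, 4566 and 4968 CPM in controls (0.65 ± 0.093, edgeR adjusted p = 0.0222), and ND4L and CYTB differed by 0.40 and 0.39 (edgeR adjusted p = 0.0499 and 0.0427). The metformin libraries lay among the controls for ND1, and the count of 3 was 0 without imeglimin 1 or any 1 metformin library and 1 without imeglimin 2 (edgeR adjusted p of ND1 up to 0.112). With the labels' batch number in the model ND4L and CYTB lost their calls (edgeR adjusted p = 0.0686 and 0.0817). The nuclear subunits gave 1 difference in 36 for complex I (lower with imeglimin) and 0 in 35 for complexes II to V by edgeR, while at an unadjusted p under 0.05 21 and 23 were lower with imeglimin and DESeq2 called 12 and 15 lower.  Beside the shared controls, mitochondrial genes were called higher in 11 of 13 with imeglimin and 3 of 13 with metformin, and nuclear complex I genes in 31 and 36 of 36.

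Cholesterol synthesis gave 0 differences of 20 between the compounds by edgeR, where 14 were higher with imeglimin and 1 lower at an unadjusted p under 0.05 and DESeq2 called 6 higher and 1 lower. Hmgcs1 stood at 245, 441 and 387 CPM with imeglimin, 216, 203 and 171 CPM with metformin and 121, 169 and 143 CPM in controls, a difference of 0.86 (95% interval 0.41 to 1.31, edgeR adjusted p = 0.0803). Every imeglimin library lay above every metformin library, and every metformin library above every control library, but the difference did not pass. Against the shared controls, 14 of 20 synthesis genes were called with imeglimin and 3 with metformin (7.97% and 11.6% of all genes). Of the 24 largest rises and falls with imeglimin, 1 differed between the compounds, Brca1 (1.19 ± 0.22, edgeR adjusted p = 0.05), which was lost without any 1 library other than imeglimin 3 (edgeR adjusted p up to 0.183). The 95% interval reached 0.612 log2 units to either side at the median of these 24, so smaller differences may be missed. Tfrc had -0.12 (-0.34 to 0.10), Hkdc1 0.39 (-0.21 to 0.99) and Slc37a2 0.57 (-0.10 to 1.25).

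**Figure D4:**
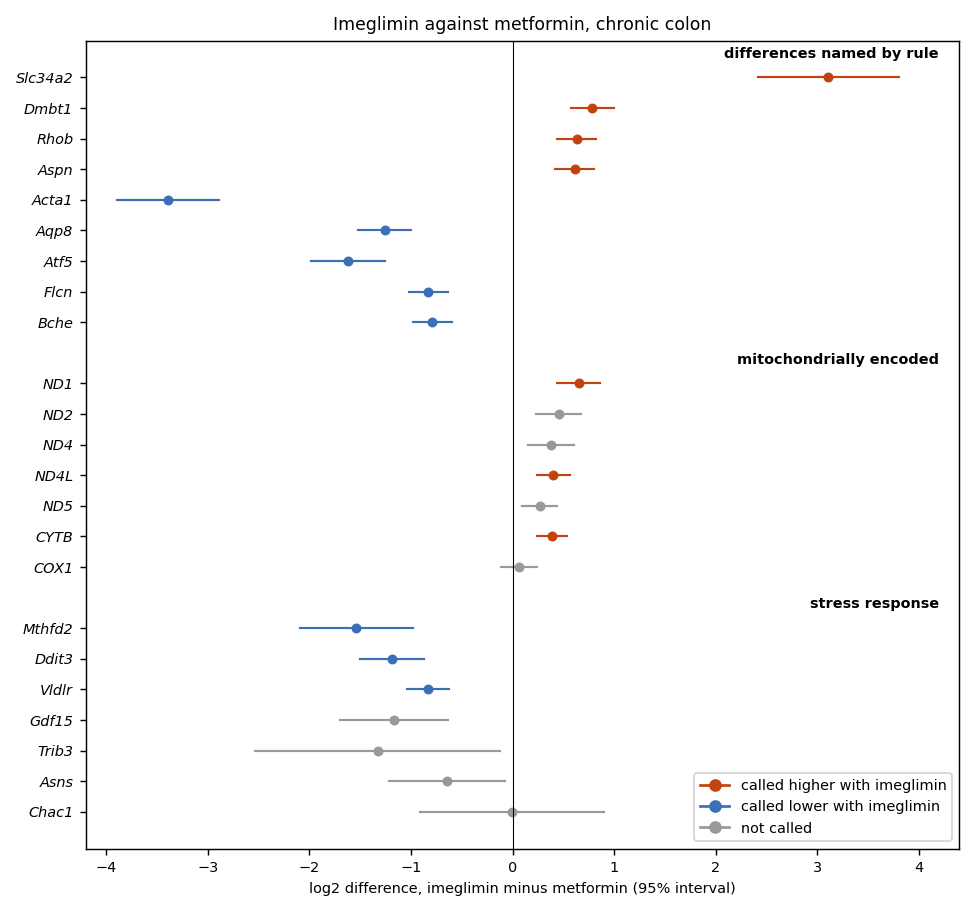
Log2 difference of imeglimin minus metformin in chronic colon with its 95% interval, for 9 of the 10 differences with the smallest p, 7 of the 13 mitochondrially encoded genes and 7 stress response genes. Points right of 0 are higher with imeglimin, such as Slc34a2 at 3.11, and points left of 0 lower, such as Acta1 at -3.39.

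The effect of imeglimin differed between 4 weeks in the drinking water and 6 h after the oral dose. Dose, route, time and counting table differ together between these experiments, and the labels give colon for both without naming a segment, so none of these, nor a difference in the segment taken, can be told apart. The difference of the effects was called in 3154 of 19369 genes (16.3%), 1689 higher (8.72%) and 1465 lower (7.56%) after 4 weeks. Tfrc stood at 158, 114 and 139 CPM in acute imeglimin libraries, against 103, 97.7 and 109 CPM in acute control libraries (0.41 ± 0.12, edgeR adjusted p = 0.016), and its effect was larger after 4 weeks (2.24 ± 0.18, edgeR adjusted p = 3.4e-06 for the difference). Hkdc1 had 0.72 after 6 h (edgeR adjusted p = 0.039) and a difference of 2.42 (edgeR adjusted p = 0.000687). Slc37a2 stood at 0.940, 1.80 and 13.2 CPM in acute imeglimin libraries, against 1.43, 1.36 and 1.90 CPM in acute control libraries (1.77 ± 0.69, edgeR adjusted p = 0.0582), which did not pass and rested on 1 library, and its effects differed (difference -4.51 ± 0.88, edgeR adjusted p = 0.00273). The acute control level of Slc37a2 was also far below the 401 to 525 CPM of the chronic controls. Of the 24 largest changes after 4 weeks, 14 differed from the acute effect, each in the direction of the chronic change, which their choice by the chronic effect favours. Of these, Rtn4r, Lpo and Insrr lost the call when some single libraries were left out (edgeR adjusted p up to 0.063, 0.147 and 0.0915), and Insrr also with the labels' batch number in the model (edgeR adjusted p = 0.0509). Without chronic control 3 the number of genes with a lower effect was 957.

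After 6 h, where 17.8% of all genes were called higher with imeglimin and 16.9% lower, 0 of the 20 cholesterol synthesis genes were called by edgeR (0 higher and 1 lower at an unadjusted p under 0.05). The difference of the effects was called in 12 of the 20, all higher after 4 weeks. Hmgcs1 stood at 316, 326 and 276 CPM in acute imeglimin libraries, against 398, 285 and 275 CPM in acute control libraries (-0.061 ± 0.19, edgeR adjusted p = 0.838), with overlapping groups, and its effects differed (1.38 ± 0.27, edgeR adjusted p = 0.00266). Insig1 differed as well (1.60 ± 0.30, edgeR adjusted p = 0.00211). Abca1 and Mylip were lower at both times, with -1.14 and -1.07 after 6 h (edgeR adjusted p = 3.84e-05 and 3.02e-05) and no called difference between the times. ND5, of mitochondrial complex I, stood at 1770, 1678 and 1975 CPM in acute imeglimin libraries, against 5490, 3925 and 3882 CPM in acute control libraries (-1.29 ± 0.12, edgeR adjusted p = 2.08e-06), against a rise after 4 weeks (difference 1.69 ± 0.17, edgeR adjusted p = 2.4e-05).

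Stress genes were higher after the single dose. Gdf15 stood at 71.4, 104 and 79.5 CPM in acute imeglimin libraries, against 0.486, 1.11 and 0.891 CPM in acute control libraries (6.67 ± 0.34, edgeR adjusted p = 4.08e-09), against 0.51 after 4 weeks, which did not pass (difference -6.16 ± 0.42, edgeR adjusted p = 1.51e-06). Areg, an EGF receptor ligand, stood at 148, 215 and 199 CPM in acute imeglimin libraries, against 3.60, 2.92 and 5.78 CPM in acute control libraries (5.50 ± 0.31, edgeR adjusted p = 9.12e-09; difference -5.39 ± 0.39, edgeR adjusted p = 1.51e-06). Both genes were far apart between the acute groups and overlapped between the chronic ones. Chac1 had 5.47 after 6 h and 2.54 after 4 weeks (difference -2.91 ± 0.58, edgeR adjusted p = 0.00316). Hk2 had 1.86 after 6 h and 0.53 after 4 weeks (difference -1.32 ± 0.19, edgeR adjusted p = 0.000388), and Txnip -1.30 and -0.48 (difference 0.84 ± 0.22, edgeR adjusted p = 0.0173). The Txnip difference was lost without acute control 1 or acute imeglimin 2 (edgeR adjusted p up to 0.0535).

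Set against each other by function, the lists fell into a few patterns. The nuclear genes of the respiratory chain rose at both times, with 34 of 36 genes of complex I and 34 of 35 of complexes II to V called higher after 6 h, beside 31 and 32 after 4 weeks, and 1 difference was called in each list. The 13 mitochondrially encoded genes had 0 called higher and 6 lower after 6 h, beside 11 higher and 0 lower after 4 weeks, and 9 of the 13 differed. Genes of the integrated stress response were called higher in 23 of 30 after 6 h (median 1.46) and in 8 after 4 weeks (median 0.24), and in 15 the effect was lower after 4 weeks. Cytosolic heat shock chaperones were called higher in 12 of 16 after 6 h and in 6 after 4 weeks, with 11 lower effects after 4 weeks and 1 higher. Mitochondrial import proteins were called in 20 of 20 after 6 h and in 9 after 4 weeks, with 11 lower effects. Detoxification genes ran the other way, with 1 of 22 called higher and 5 lower after 6 h, beside 7 and 2 after 4 weeks, and 9 differences, all higher after 4 weeks.

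**Figure D5:**
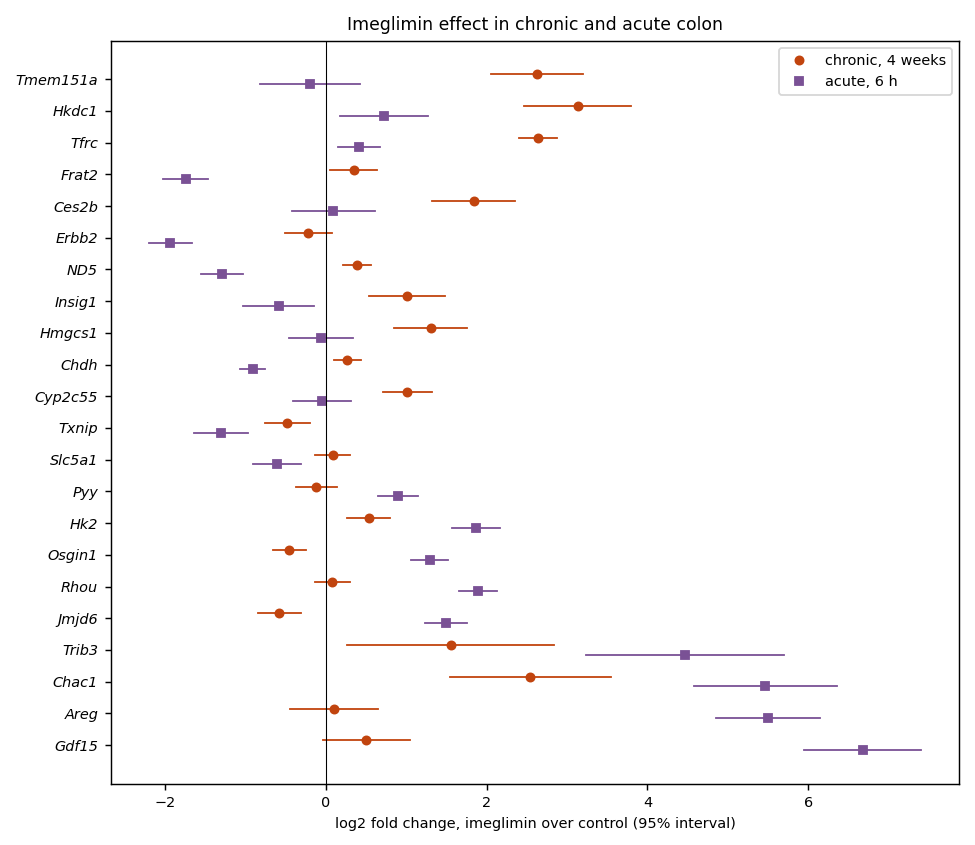
Log2 fold change of imeglimin over control with its 95% interval after 4 weeks in the drinking water (orange circles) and 6 h after an oral dose (purple squares), for 22 genes. Tfrc lies at 2.64 after 4 weeks and 0.41 after 6 h, and Gdf15 at 0.51 and 6.67.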

How the data were processed

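Per the labels' protocols, RNA was extracted from intestinal tissue with RNeasy columns and made into libraries with a TruSeq Stranded mRNA kit. The authors deposited a table of whole-number read counts per gene symbol for each experiment, with 45777 symbols in the chronic colon table, 26 of them turned into dates. Per the submitters' processing notes, FastQC, Trimmomatic, HISAT2 and StringTie were used, with builds mm10 and GRCm39 named without roles. The use of strand in counting was not given in the sources used here, so overlapping and antisense genes are uncertain.

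The 9 chronic colon libraries (3 imeglimin, 3 metformin, 3 control) were fitted together with edgeR 4.0.16 in R 4.3.3, using filterByExpr, TMM scaling and the quasi-likelihood F test. P-values were adjusted by Benjamini-Hochberg over all genes tested, with calls at 0.05. Some genes are not reported here. CPM values were computed from the counts. The difference between long and short exposure was a contrast of contrasts over 18 libraries, joined by symbol. Alternatives were DESeq2 1.42.0, RLE scaling, no filter, a fit of only the groups compared, a replicate block and leaving out each library. The tests were checked on simulated counts. The members and the 39 functional and 19 marker lists were chosen with earlier results of these data known. The 12 largest rises and 12 largest falls were taken from 805 genes that were called with and without control 3 and had a mean level of 5 CPM or more in 1 of the groups, no overlap of groups and no predicted-model symbol. Of each list up to 4 called members with the smallest p were named, besides a set of genes of interest, and others named in the text were chosen after their values were seen. The labels give each library a batch number equal to its replicate number, so the numbers pair the libraries across groups by label. Same-numbered libraries of different groups had deviations from their group means that correlated at 0.0687 on average (9 pairs, 3 of them over 0.1). Other pairs had -0.0344. Taking out the group means nearly fixes this second value once the first is given, so it is not a separate comparison. No replicates were alike within sampling noise (chi-square per gene 22.2 to 137).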

Additional observations from a re-analysis of the deposited data

Results flagged for a closer look

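The effect of imeglimin differed between 4 weeks in the drinking water and 6 h after the oral dose in 3154 genes, by a test of the difference itself in edgeR, and the genes here are among those named in the report and the 10 with the smallest p (5 in each direction). Values are the log2 effect after 4 weeks minus the log2 effect after 6 h, with an edgeR adjusted p of at most 0.05 for each. Dose, route, time and counting table differ together between the experiments, no colon segment is named, and these cannot be told apart. Among genes with a higher effect after 4 weeks, the difference was 2.24 for Tfrc, 2.42 for Hkdc1, 2.09 for Frat2, 1.72 for Erbb2, 1.69 for ND5 and 1.18 for Chdh. It was 2.83 for Tmem151a, 1.03 for Rtn4r, 1.25 for Lpo, 1.24 for Gramd2, 1.65 for both Dtl and Slfn9, and 1.42 for Brca1. The carboxylesterases Ces2b and Ces2e differed by 1.75 and 1.3, and Cyp2c55 by 1.07. The cholesterol genes Hmgcs1 and Insig1 differed by 1.38 and 1.6. The sodium-glucose transporter Slc5a1 differed by 0.696. Txnip differed by 0.836, since it was less far below controls after 4 weeks (-0.48) than after 6 h (-1.30).

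Among genes with a lower effect after 4 weeks, the difference was -6.16 for Gdf15, -5.39 for Areg, -2.91 for Chac1, -2.9 for Trib3 and -1.32 for Hk2. It was -4.51 for Slc37a2, -1.66 for Mettl7a2, -1.2 for Insrr and -1.01 for Pyy. Jmjd6, Rhou and Osgin1 differed by -2.06, -1.8 and -1.73. When 1 library was left out, the difference missed the threshold in at least 1 case for Rtn4r (edgeR adjusted p up to 0.063), Lpo (0.147), Insrr (0.0915), Txnip (0.0535), Slc5a1 (0.078) and Trib3 (0.115).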

How the results depend on the processing

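Of 149 named genes 138 were called against controls, and 130 of these kept call and direction in every alternative that used all libraries, 109 also with each library left out, and 24 lost the call without control 3. The count of 2433 was 2397 with RLE scaling, 3283 by DESeq2 (2012 higher, 1271 lower), 1861 without a filter and 1995 with only the groups compared. With the replicate block it was 2059 (1271 higher, 788 lower), 1900 of them shared, and Pgd (edgeR adjusted p = 0.0629), Txnip, Clock, Nr1h2, Slc39a14, Vil1 and Chdh (0.0614) lost the call, while Nsdhl, Sc5d, Mki67, Ccnb1, Plin1, Fabp4 and Ly6g gained one. No other call against controls changed among the genes the text names. With 1 library left out it ranged from 932 to 1623 (598 to 1045 higher, 334 to 616 lower), and the cause was not tested. Imeglimin against metformin (114) gave 1216 genes by DESeq2 (400 higher, 816 lower), 62 without a filter (16 and 46), 17 with only the groups compared (4 and 13) and 11 to 543 with a library left out (2 to 151 higher, 9 to 392 lower). The chronic minus acute difference (3154) gave 3755 genes by DESeq2 (1969 higher, 1786 lower), 2622 with the replicate block and 2123 to 3203 with a library left out (1152 to 1496 higher, 957 to 1707 lower), and its counts by list were not recomputed. Members called higher ranged over left-out libraries from 6 to 20 for cell cycle, 6 to 16 for cholesterol synthesis, 21 to 30 for complex I, 26 to 31 for complexes II to V, 5 to 11 for the unfolded protein response, 8 to 13 for glycolysis and 6 to 11 for mitochondrially encoded genes. Among genes not called, the sign turned for Slc5a1 (-0.0366 to 0.166 over left-out libraries), Gcg (-0.0186 with the replicate block, -0.162 to 0.213 over left-out libraries), Areg (-0.175 to 0.313) and Slc29a4 (-0.221 to 0.349). Each group has 3 libraries, which limits the precision of every value.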

Other observations

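Some genes outside the lists showed an effect that differed between the long and the short exposure. Erbb2, a receptor of the EGF receptor family, stood at 157, 204 and 176 CPM in imeglimin libraries, against 229, 195 and 199 CPM in control libraries after 4 weeks and at 62.1, 58.8 and 71.1 CPM in acute imeglimin libraries, against 229, 263 and 240.3 CPM in acute control libraries after 6 h, with log2 effects of -0.22 and -1.93. Frat2, which acts in Wnt signalling, had 0.35 and -1.74. Chdh, which oxidises choline in mitochondria, had 0.27 and -0.91. Osgin1, a gene known as a target of NRF2, stood at 16.6, 17.6 and 19.1 CPM in imeglimin libraries, against 22.4, 23.9 and 26.6 CPM in control libraries after 4 weeks and at 63.9, 77.4 and 64.3 CPM in acute imeglimin libraries, against 24.3, 29.7 and 29.9 CPM in acute control libraries after 6 h, with log2 effects of -0.45 and 1.29. With 1 library left out, the chronic effects of Chdh and Osgin1 missed the threshold in at least 1 case (edgeR adjusted p up to 0.142 and 0.0664), and that of Erbb2 was not called (edgeR adjusted p = 0.322), with overlapping groups. These genes were chosen by the size of the p of the difference.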
